A study of Mus musculus with 6 samples.

Results

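The plasminogen activators and wound-response serpins are 5 genes chosen by name: Plau, Plat, Plaur, Serpine2 and Serpinb2. A gene counted as measured when the array platform's annotation gave it alone for a probe set, and the brightest such probe set over the 6 arrays stood for it. This held for 4 of the 5 genes, out of 12393 genes in all. No probe set names Serpine2, the gene of protease nexin 1, alone, and this gene is therefore not analysed here. RNA came from whole eyeballs of mouse pups of mixed background at postnatal day 1, with 3 Brg1 cKO and 3 wild-type samples and 1 array each. In Brg1 cKO pups, homozygous floxed alleles of Brg1 (Smarca4), which encodes the ATP-driven motor of SWI/SNF chromatin remodelers, were combined with Le-Cre. The Cre is driven in head surface ectoderm, from which the lens and the ocular surface form. The study's methods describe each sample as 1 eyeball and the controls as littermates, and its text states that floxed Brg1 pups without Cre served as controls, while the labels say only wild type. No Le-Cre control is among the 6 samples used here, so that effects of Cre and of Brg1 loss on RNA cannot be told apart. The study reports that Le-Cre mice did not differ from wild type in phenotype. It also describes incomplete deletion in many embryos, and the degree of deletion in these eyes is not given.

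Plasmin is a serine protease that dissolves fibrin, degrades matrix and activates other proteases. It is cut from plasminogen by urokinase, encoded by Plau, which acts mainly at cell surfaces and in tissue, and by tissue-type plasminogen activator, encoded by Plat, which acts mainly on fibrin and is also made by vessels and nervous tissue. The urokinase receptor, encoded by Plaur, is a lipid-anchored protein that holds urokinase on leukocytes and on migrating epithelial cells. Serpins end the reaction by trapping the protease. Serpinb2 encodes plasminogen activator inhibitor 2, most of which stays inside the cell, and activated monocytes and stressed keratinocytes are known to induce it.

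The promoters of Serpinb2 and Plaur are shown because these genes had the largest differences of the 4. RefSeq held promoter windows for 3 of the 5 genes, Serpinb2, Plaur and Serpine2. Each window runs from 250 bases before to 50 bases after an annotated start, on build GRCm38.p6. Serpinb2 has 2 overlapping windows, of which the upstream one is printed. Its window is chr1:107511173-107511472 and that of Plaur is chr7:24462233-24462532, both on the plus strand. Capitals mark matches to TGANTCA, TGACNTCA or TATAAA, searched on both strands, where N is any base. TGANTCA is a loosened form of the AP-1 motif, and TGACNTCA is a loosened form of the cyclic AMP response element. No printed matches overlap. The motifs were chosen with the sequences in view.
Serpinb2: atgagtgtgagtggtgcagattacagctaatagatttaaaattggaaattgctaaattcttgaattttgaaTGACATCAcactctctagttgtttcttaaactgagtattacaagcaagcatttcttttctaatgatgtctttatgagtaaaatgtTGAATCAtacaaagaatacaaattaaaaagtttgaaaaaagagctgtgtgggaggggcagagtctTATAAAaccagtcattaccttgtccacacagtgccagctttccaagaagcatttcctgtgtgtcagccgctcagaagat
Plaur: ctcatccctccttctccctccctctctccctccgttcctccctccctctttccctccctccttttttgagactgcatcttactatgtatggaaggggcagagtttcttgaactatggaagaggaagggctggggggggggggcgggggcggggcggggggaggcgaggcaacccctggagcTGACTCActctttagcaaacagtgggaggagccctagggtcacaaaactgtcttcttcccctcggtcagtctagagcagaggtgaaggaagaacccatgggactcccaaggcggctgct
In the printed window, Serpinb2 matched TGANTCA from base -94, TGACNTCA from base -179 and TATAAA from base -29, counted from the annotated start. Counted from the start of its other window, TGANTCA lies at -181 and TATAAA at -116, and TGACNTCA has no match in that window. The TGACNTCA match of Serpinb2 reads TGACATCA and so is not the full element. Its TGANTCA match reads TGAATCA, which only the loosened form allows. Plaur matched only TGANTCA, from base -69. Of 32851 RefSeq windows of the same length, 7.81% hold TGANTCA, 8.83% hold TGACNTCA and 13.6% hold TATAAA. These matches describe the letters of the windows, and no binding was measured.

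Serpinb2 was higher in each Brg1 cKO eyeball than in any wild-type eyeball, and Plaur was as well, but only Serpinb2 passed the test. No difference was resolved for the activators, Plat with overlapping groups and Plau at the low end of the scale. The values below are log2 RMA intensities, where RMA is the authors' normalization of the arrays, and 1 unit is a doubling. The test was limma's moderated test over all 22626 probe sets, with a Benjamini-Hochberg adjusted p under 0.05 as the threshold. By this rule 1 of the 4 measured genes, Serpinb2, was called, where 0.508% of all probe sets were called in either direction and 0.305% were called higher. A looser rule asked for a fold over 1.5 with limma's p under 0.05 before adjustment, and 2 of the 4 were higher by it, Serpinb2 and Plaur, against 3.54% of all probe sets. All Brg1 cKO values lay above all wild-type values for 3 of the 4, Serpinb2, Plaur and Plau, against 7.31% of all probe sets. These genes were chosen with results of the arrays known, so the counts describe them and test nothing further. No selection by level was applied before the test.

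**Figure D1:**
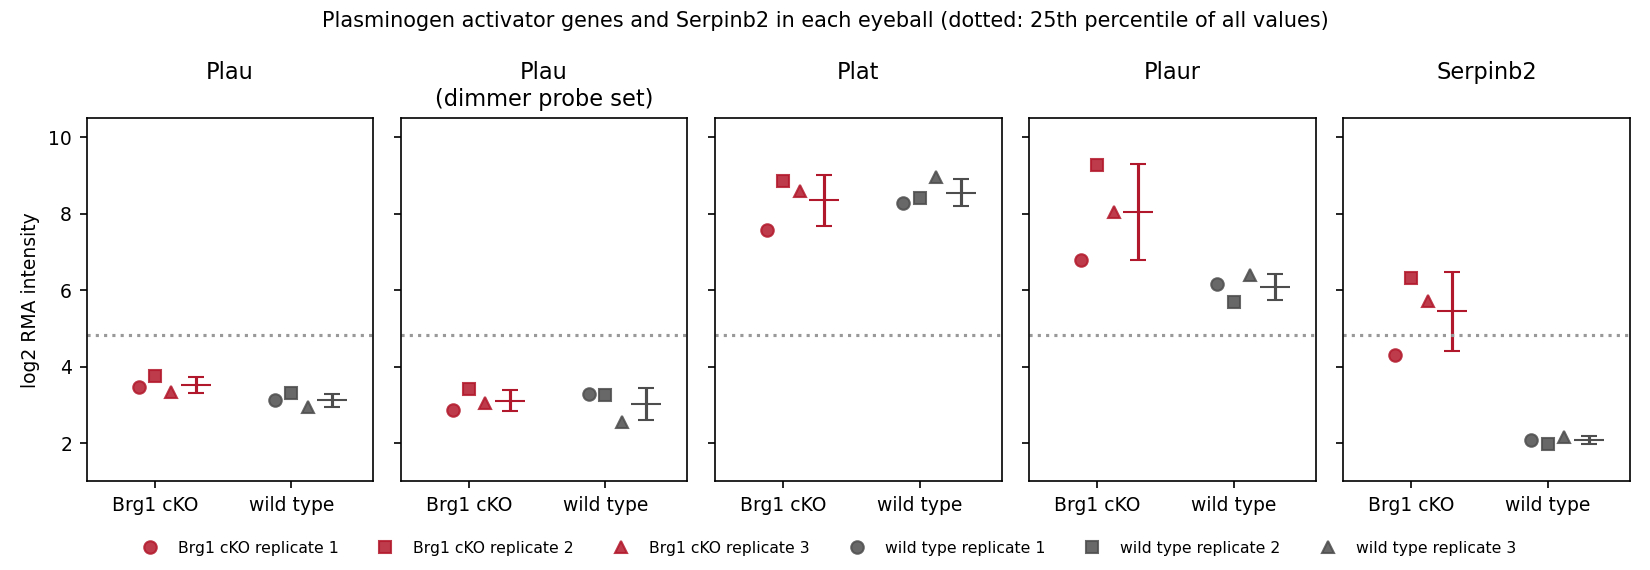
Log2 RMA intensity of the 4 measured genes in each eyeball, with the dimmer probe set of Plau beside the brighter one. Points are arrays, with a symbol per replicate, bars give the mean and SD of 3 arrays, Brg1 cKO stands left of wild type, and the dotted line is the 25th percentile of all values, log2 4.84. Serpinb2 and Plaur separate the genotypes, Plat overlaps, and Plau lies below the dotted line in all arrays.

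Of the inhibitors, Serpinb2 read 4.31, 6.31 and 5.73 in Brg1 cKO replicates 1 to 3, against 2.08, 1.97 and 2.17 in wild-type replicates 1 to 3. The groups were 5.45 ± 1.03 in Brg1 cKO and 2.08 ± 0.10 in wild type (log2, SD, n = 3 each), and they did not overlap. All wild-type values lay among the lowest of the array, at percentile 0.528 of its probe sets or below, whereas Brg1 cKO values lay between percentiles 20.5 and 37.8. In wild-type eyeballs the probe set was thus at the floor of the scale, and the arrays cannot show whether any Serpinb2 RNA was present there. The log2 difference was 3.37 (SE 0.47, limma adjusted p = 0.0328), which is 10.4-fold with a 95% interval of 4.85-fold to 22.2-fold. With wild type at the floor, the fold has no firm size. With 32 added to each intensity before the log2 step, it was 2.18-fold, and limma's adjusted p was 0.374. An exact permutation test over the 6 arrays, two-sided, gave p = 0.1, the smallest p that 3 arrays against 3 allow.

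The call of Serpinb2 was lost when certain single arrays were left out. Without wild-type replicates 1, 2 and 3, limma's adjusted p was 0.188, 0.174 and 0.144, and without Brg1 cKO replicate 3 it was 0.126. It remained below the threshold without Brg1 cKO replicate 1 (adjusted p = 0.00288) and without Brg1 cKO replicate 2 (adjusted p = 0.0328). The log2 difference itself stayed between 2.94 and 3.94 in these 6 fits.

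Of the cell-surface components, Plaur, the urokinase receptor, read 6.79, 9.29 and 8.04 in Brg1 cKO replicates 1 to 3, against 6.15, 5.71 and 6.40 in wild-type replicates 1 to 3. The lowest Brg1 cKO eyeball, replicate 1, lay only slightly above the highest wild-type eyeball, and replicate 2 lay far above both. The groups were 8.04 ± 1.25 in Brg1 cKO and 6.09 ± 0.35 in wild type (log2, SD, n = 3 each). The difference was 1.95 (SE 0.57), or 3.88-fold with a 95% interval of 1.52-fold to 9.85-fold. It did not pass over all probe sets (limma p = 0.0107, adjusted p = 0.354; exact permutation p = 0.1). The spread among Brg1 cKO eyeballs was wide, and the SD of Plaur in that group exceeded that of 98.5% of genes. Its size moved with single arrays, to 5.97-fold without Brg1 cKO replicate 1 (adjusted p = 0.0701) and to 2.52-fold without Brg1 cKO replicate 2 (adjusted p = 0.384).

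Of the activators, Plat read 7.58, 8.86 and 8.60 in Brg1 cKO replicates 1 to 3, against 8.28, 8.41 and 8.95 in wild-type replicates 1 to 3. The groups overlapped, and Brg1 cKO replicate 1 was the lowest of the 6 eyeballs. The means were 8.35 ± 0.68 in Brg1 cKO and 8.55 ± 0.35 in wild type (log2, SD, n = 3 each). The log2 difference was -0.20 (SE 0.36, limma adjusted p = 0.921, exact permutation p = 0.8), with a 95% interval of -1.05 to 0.64. Changes of up to about this size in either direction are therefore not resolved. Without Brg1 cKO replicate 1 the difference was 0.18 and thus of the opposite sign.

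Plau, the urokinase gene, was measured by 2 probe sets, both near the low end. The brighter read 3.48, 3.75 and 3.34 in Brg1 cKO replicates 1 to 3, against 3.12, 3.30 and 2.95 in wild-type replicates 1 to 3. The groups did not overlap, yet the log2 difference was only 0.40 (SE 0.19, limma adjusted p = 0.664, exact permutation p = 0.1). The dimmer probe set read 2.86, 3.41 and 3.06 in Brg1 cKO replicates 1 to 3, against 3.28, 3.26 and 2.55 in wild-type replicates 1 to 3. Here the groups overlapped, and the log2 difference was 0.08 (SE 0.26, limma adjusted p = 0.959, exact permutation p = 0.8). All Plau values of both probe sets lay between percentiles 3.27 and 15.3 of their arrays. The table holds no detection calls, so Plau was not detectably different here, at a signal close to background.

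**Figure D2:**
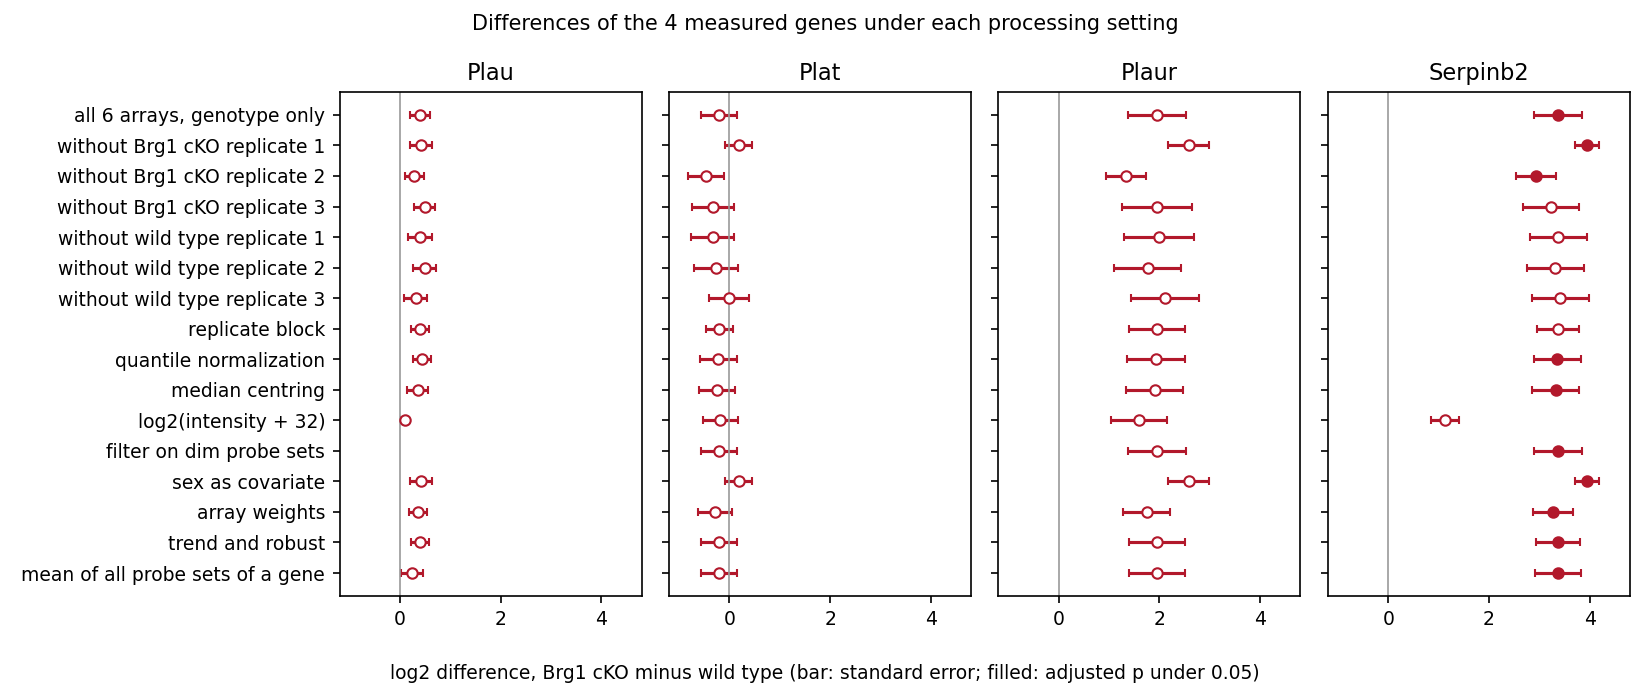
Log2 difference of Plau, Plat, Plaur and Serpinb2, Brg1 cKO minus wild type, under each processing setting, with bars for the standard error and filled points for an adjusted p under 0.05. Serpinb2 stays between 1.12 and 3.94 and Plaur between 1.33 and 2.58, whereas Plat lies on both sides of 0, from -0.46 to 0.18. Plau has no point where dim probe sets were removed.

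Across the 3 mutant eyeballs, Serpinb2 and Plaur took the same order, lowest in replicate 1 and highest in replicate 2, and Plat did too. The median shifts of 5 of 11 marker lists also took it, those of macrophage, neutrophil, endothelium, skeletal muscle and epidermis, so that the order was not particular to leukocyte markers. Relative to the wild-type mean, Serpinb2 lay 2.23, 4.24 and 3.65 log2 units higher in Brg1 cKO replicates 1 to 3, and Plaur lay 0.71, 3.20 and 1.96 higher. Brg1 cKO replicate 1 was the only male, with Y-linked genes at a mean of 5.68, against 2.41 to 2.60 in the other 5 arrays. Sex and array are the same contrast in the mutant group and cannot be told apart. The gap between 3' and 5' actin control probe sets, which widens as RNA degrades, was 1.28, 1.34 and 0.98 log2 units in Brg1 cKO replicates 1 to 3, against 1.12, 1.01 and 0.93 in wild-type replicates 1 to 3. Median intensity per array was 180 to 185.5 in Brg1 cKO and 169.1 to 184.6 in wild type. The targeted gene, Smarca4, had 2 probe sets with log2 differences of 0.18 and -0.70, neither past the test, and where they lie relative to the deleted part was not given in the sources used here.

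Some markers of leukocytes and of injured epidermis were also higher in Brg1 cKO eyeballs. In bulk samples such as these, a change in the number of cells of a type and a change in RNA per cell cannot be told apart. Of 12 macrophage and microglia markers, all 12 had positive differences and 2 rose past the test, Cd14 and Itgb2. Their summed intensity was 3684, 9233 and 4520 in Brg1 cKO replicates 1 to 3, against 1842, 1823 and 2216 in wild-type replicates 1 to 3. Itgam of this list stayed at the low end in all arrays, from 2.90 to 3.56. Of 10 neutrophil markers, 7 had positive differences and 2 rose past the test, the calprotectin genes S100a8 and S100a9. That list summed to 7099, 22766 and 7903 in Brg1 cKO replicates 1 to 3, against 848, 575 and 724 in wild-type replicates 1 to 3. The sum rests on the calprotectin pair. The other 8 genes summed to 276.5, 1070 and 369.8 in Brg1 cKO replicates 1 to 3, against 373.4, 284.9 and 221.2 in wild-type replicates 1 to 3. These sums overlapped between the groups. Csf3r alone of the 8 did not overlap, at 5.23, 6.88 and 5.30 in Brg1 cKO replicates 1 to 3. Its wild-type replicates 1 to 3 read 3.59, 3.79 and 3.61, and limma's adjusted p was 0.127. Of the 10 markers, 3 had negative differences. The granule genes Mpo and Elane, made in immature neutrophils, read at most 2.95 in any array. Both leukocyte sums were highest in Brg1 cKO replicate 2, and so was the sum of skeletal muscle markers, at 19071, 46763 and 38194 in Brg1 cKO replicates 1 to 3, against 25842, 25182 and 42136 in wild-type replicates 1 to 3.

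The wound epidermis list, of keratins and envelope precursors that injured or stressed skin induces, had 5 of 7 genes called higher. It summed to 6397, 10228 and 11571 in Brg1 cKO replicates 1 to 3, against 1245, 1264 and 1182 in wild-type replicates 1 to 3, and thus differed from the leukocyte lists in that replicate 3 was the highest. Of 5 markers of normal epidermis, 7 of endothelium, 7 of stroma, 8 of skeletal muscle, 4 of neural retina and 5 of glia, 0 passed limma's test. Of 4 corneal epithelium markers, 1 fell, the keratin gene Krt12, with a log2 difference of -3.71 (SE 0.25). All 8 lens fiber markers had negative differences without overlap, at a median of -2.27, but 0 passed. The part of leukocytes or of stressed epithelium in the differences of Serpinb2 and Plaur was not tested.

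**Figure D3:**
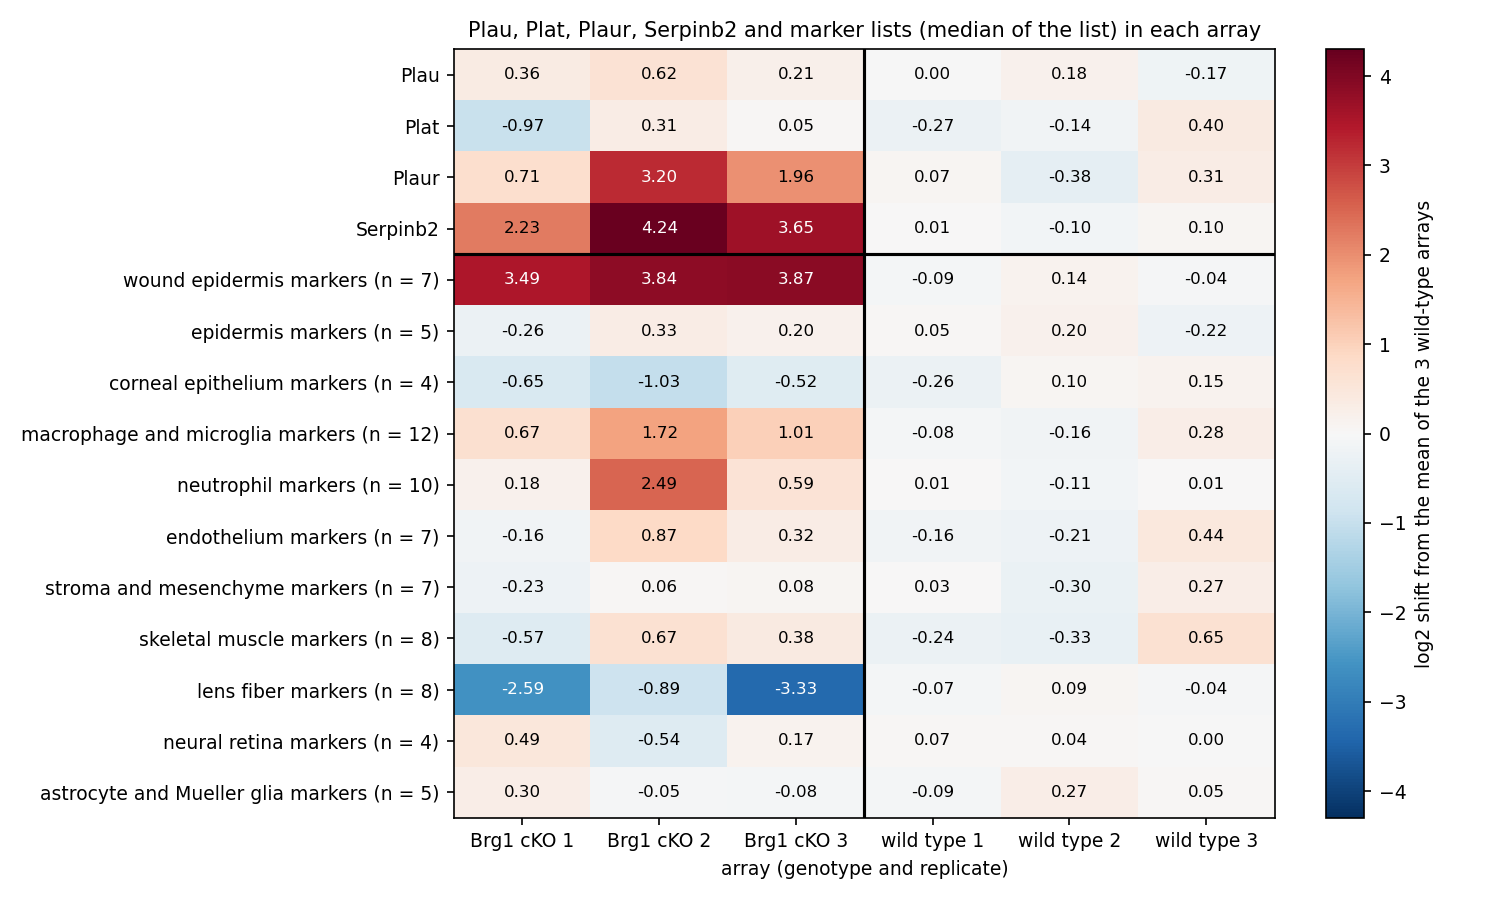
Shift of Plau, Plat, Plaur and Serpinb2, and median shift of each marker list, in each array from the mean of the 3 wild-type arrays, in log2 units, with Brg1 cKO arrays on the left. In Brg1 cKO arrays the shift of Serpinb2 is 2.23 to 4.24, macrophage markers 0.67 to 1.72, neutrophil markers 0.18 to 2.49 and wound epidermis markers 3.49 to 3.87.

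The genes with the most similar pattern were found by the root mean square difference of log2 values over the 6 arrays, after each gene's own mean was subtracted. For Serpinb2 these were Ms4a4c (0.17), Ifi209 (0.24), of an interferon-inducible family, and Clec4n (0.30), which encodes the fungal pattern receptor Dectin-2 of myeloid cells. For Plaur they were Cd86 (0.16), a costimulatory molecule of antigen-presenting cells, Ppbp (0.17), a platelet chemokine precursor, and Tnfaip2 (0.17), a gene that tumor necrosis factor induces. For Plat they were Sec24d (0.09), a vesicle coat component, Anxa1 (0.09), an annexin, and Lox (0.10), the collagen cross-linking enzyme lysyl oxidase. Plau was nearest to Ercc5 (0.05), Gpr132 (0.06) and Farsb (0.06), but its values lie too near the low end for the order to carry weight. This is a likeness over 6 arrays that all share the contrast of genotype.

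Among other genes of the plasminogen system, Mmp3 alone passed the test. Over 4 lists of zymogen and activating proteases, inhibitors, binding and clearance proteins and substrates, 25 genes were measured, of which 1 rose past the test and 0 fell. Their median log2 difference was 0.11, against 0.02 over all genes, and 16 of the 25 differences were positive. For 8 of the 25, neither group mean reached log2 4.84, the 25th percentile of all values. Cpb2 and Eno1 are not analysed here, since no probe set names them alone.

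Plg, the plasminogen gene, is a liver gene and read 3.66, 3.65 and 3.35 in Brg1 cKO replicates 1 to 3, against 3.17, 3.32 and 3.56 in wild-type replicates 1 to 3, at the low end of the scale. Klkb1, of plasma prekallikrein, had both group means below log2 4.84 and differed by -0.74 (SE 0.44). St14, of the membrane protease matriptase, differed by -0.15 (SE 0.25), and neither passed the test. These are log2 differences, as are all that follow.

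Serping1, the C1 inhibitor gene, read 10.04, 11.33 and 10.73 in Brg1 cKO replicates 1 to 3, against 9.77, 9.36 and 10.20 in wild-type replicates 1 to 3. The groups overlapped, and the difference of 0.92 (SE 0.36) had a limma adjusted p of 0.552. A2m, a broad protease trap, differed by -0.57 (SE 0.55). Serpinf2, of alpha 2-antiplasmin, differed by -0.02 (SE 0.21), with both group means below log2 4.84. Among binding and clearance genes, Lrp1, the endocytic receptor that clears activator and inhibitor complexes, differed by 0.68 (SE 0.28, adjusted p = 0.563) without overlap of the groups. Mrc2, a collagen receptor that associates with the urokinase receptor, differed by 0.65 (SE 0.39), and the integrin gene Itgb1 by 0.35 (SE 0.34).

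The gene that rose was Mmp3, of stromelysin 1, a matrix protease whose proenzyme plasmin can cut. It read 10.69, 11.69 and 11.60 in Brg1 cKO replicates 1 to 3, against 5.18, 5.09 and 5.30 in wild-type replicates 1 to 3, and the groups lay far apart. The difference was 6.14 (SE 0.29, limma adjusted p = 0.00054). The other 8 substrates did not pass, among them Fgb at 0.63 (SE 0.22, adjusted p = 0.470) and Pdgfc at -0.67 (SE 0.24, adjusted p = 0.507). For 4 of the 9 substrates, the fibrinogen genes Fga, Fgb and Fgg and the gene Hgf, neither group mean reached log2 4.84. At that low end the arrays say little about whether these genes changed. Intervals were wide for some, as for the gelatinase gene Mmp9, with a 95% interval of -1.81 to 3.39.

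Coagulation and protease-activated receptor genes gave 0 calls among 13 by limma, where 3 had an unadjusted p under 0.05, against 8.4% of all probe sets. F10, coagulation factor X, had the smallest p of these and read 5.36, 6.25 and 5.26 in Brg1 cKO replicates 1 to 3, against 4.04, 4.25 and 4.04 in wild-type replicates 1 to 3. The groups did not overlap, and the difference was 1.51 (SE 0.28, adjusted p = 0.105). Procr, the endothelial protein C receptor, differed by 1.76 (SE 0.59, adjusted p = 0.448) and F5, coagulation factor V, by 0.55 (SE 0.22, adjusted p = 0.562).

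Of 29 other serpins, 1 rose and 0 fell, and their median difference was 0.06. For 15 of the 29, neither group mean reached log2 4.84, the low end marked in the plot of values by array. The one that rose was Serpina3n, an acute-phase inhibitor, with 9.89, 11.45 and 10.31 in Brg1 cKO replicates 1 to 3, against 4.99, 4.74 and 5.57 in wild-type replicates 1 to 3. Its difference was 5.46 (SE 0.42, adjusted p = 0.0036). Serpinb11, of the same clade as Serpinb2 and chosen after its values were seen, ran the other way. It read 4.74, 6.09 and 5.55 in Brg1 cKO replicates 1 to 3, against 7.27, 7.64 and 7.67 in wild-type replicates 1 to 3. The groups did not overlap, but the difference of -2.07 (SE 0.34) had an adjusted p of 0.0647.

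**Figure D4:**
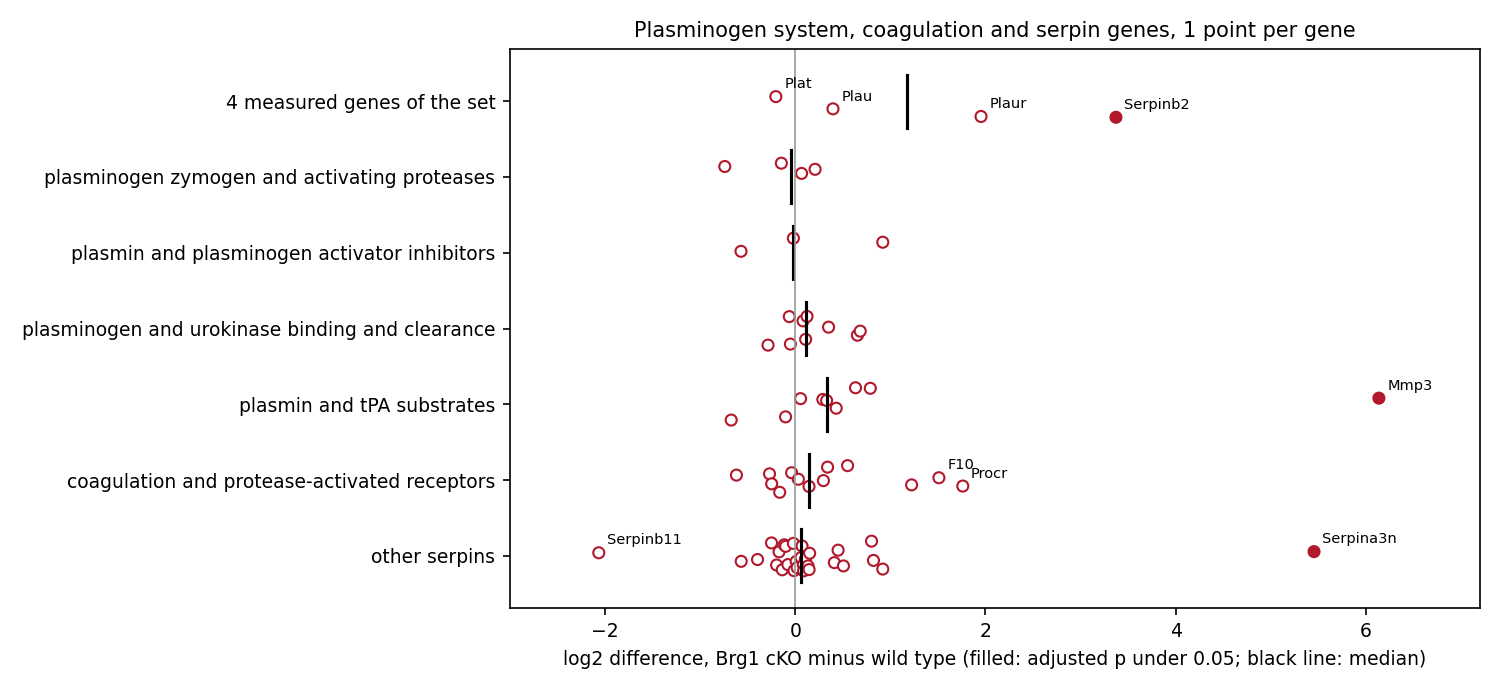
Log2 differences, Brg1 cKO minus wild type, of the 4 measured genes and of the plasminogen system, coagulation and other serpin lists, 1 point per gene, filled where the adjusted p was under 0.05, with a black line at the median of each list. Serpinb2 (3.37), Mmp3 (6.14) and Serpina3n (5.46) are filled. Serpinf2 and Serping1 stand both in the inhibitor list and among the serpins.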

How the data were processed

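Eyeball RNA of 3 Brg1 cKO and 3 wild-type pups was arrayed, 1 array per sample. The authors amplified 50 ng of total RNA per sample, hybridised it to Affymetrix mouse expression arrays and applied RMA, whose software is not given in the sources. As deposited, values are linear intensities, converted to log2 here. RMA adjusts background and equalises arrays, so a value near the floor says little about the RNA level.

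The 64 array control rows were left out, which leaves 22626 probe sets. Of these, 20380 name 1 gene in the platform annotation, which can be old, 691 name several and 1555 are unnamed. Per gene the brightest of its probe sets was used. Differences, Brg1 cKO minus wild type, were tested across all probe sets by limma (version 3.58.1, under R 4.3.3) on genotype alone, two-sided, and Benjamini-Hochberg adjustment. Exact two-sided permutation tests of 6 values were added for the genes of the set. The procedure was tested on simulated data. The number of arrays limits the precision. The p-values of limma set each difference against the spread between samples of the same genotype, moderated over all probe sets.

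The study's stated selection limits, template matching at p under 0.05 with a fold over 1.5, were applied as an alternative. Others were leaving out each array, a replicate block, quantile normalization, median centring, an offset of 32, a filter on dim probe sets, sex, array weights, a trended robust fit and the mean over probe sets. Genes and lists, among them markers of the cell types an eyeball holds, were chosen with earlier results of these data known. Named genes are those of the set, list genes past the threshold or else up to 3 per list with the smallest p, and the 3 most similar genes each. Some further genes were named outside this rule, among them markers, Smarca4, Serpinb11 and substrates such as Mmp9. Promoter windows are from RefSeq, GRCm38.p6.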

Additional observations from a re-analysis of the deposited data

How the results depend on the processing

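Plaur stayed positive and uncalled in all 15 alternatives, from 1.33 to 2.58 in log2 units, with adjusted p from 0.0701 to 0.753. Plau stayed positive and uncalled in the 14 that gave a value, from 0.10 to 0.49, and no value was possible under the filter on dim probe sets, which removed it. Serpinb2 stayed positive in all 15. Over fits without 1 array its difference was 2.94 to 3.94, and the number of called genes of the set was 0 to 1. Serpinb2 was not called without Brg1 cKO replicate 3 or any wild-type replicate. It was also not called with an offset of 32 (1.12, adjusted p = 0.374, and 0 genes of the set called). Plat was -0.46 to 0.18 over fits without 1 array. It turned positive, to 0.18, without Brg1 cKO replicate 1 and with sex as a covariate. The fit with sex gives the same values as leaving out the only male. Template matching with the fold limit selected 1 gene of the set, Serpinb2, in place of 2.

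With a replicate block, Serpinb2 kept its difference of 3.37 but had adjusted p = 0.0762, 0 genes of the set were called, and 45 probe sets passed in place of 115. The labels do not say whether the numbers pair the samples. Deviations of same-numbered samples correlated at 0.06, 0.08 and 0.13 across probe sets, and none of the 6 samples correlated best with its own number. Deviations from a mean of 3 arrays depend on each other, so these correlations cannot exclude pairing.

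Of all probe sets, 115 passed (69 higher, 46 lower), 24 to 216 without 1 array, 16 with an offset of 32, 190 with array weights and 820 by template matching, which is unadjusted. The study reports a larger number of genes by template matching with this fold limit for these arrays. Its count was thus not reproduced, and the reason was not traced. Without wild-type replicates 1 to 3 the counts were 24, 26 and 36, and without Brg1 cKO replicates 2 and 3 they were 216 and 53. Coagulation genes gave 0 to 1 calls without 1 array, the 1 being F10 without Brg1 cKO replicate 2 (adjusted p = 0.0438). Other serpins gave 1 to 2 calls without 1 array, 2 with array weights, 2 with the mean over probe sets and 0 with the offset. The second was Serpinb11, which fell in those fits that called it, with adjusted p = 0.0212 without Brg1 cKO replicate 2. The plasminogen system count was 1 in all 15 alternatives. Causes of these changes were not tested. Dim signal limits Plau, 8 genes of the plasminogen system that include Plg, and, in wild type, Serpinb2.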
